A study of Homo sapiens with 6 samples.

Results

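Members of the tumour necrosis factor (TNF) superfamily and the adhesion molecule ICAM1 were examined in HepG2, an established human hepatocellular carcinoma cell line, by RNA sequencing of total RNA. The set held 10 genes out of 60483 listed, chosen by name with earlier results of these data known. They were matched by symbol to the Ensembl identifiers of the count tables. Of the 10, 9 were among the 15025 genes with enough counts to be tested. HepG2 cells transfected with an siRNA against FTO gave 3 libraries and HepG2 cells transfected with a control siRNA gave 3 libraries, numbered 1 to 3 in each group and otherwise cultured alike. The labels name no dose, no time after transfection and no siRNA sequence. They do not say that libraries of one group came from separate cultures, so p-values measure only the spread between these libraries, which may be technical.

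TNF superfamily ligands are made at the cell surface and some are released from it by proteases. They bind receptors of the TNF receptor superfamily, many of which recruit TRAF adaptor proteins and activate the transcription factor NF-kB, through the canonical route that frees RELA and NFKB1 and through the non-canonical route that runs over RELB and NFKB2. ICAM1 is an immunoglobulin-type adhesion molecule to which leukocyte integrins bind, and it is a textbook target of TNF and NF-kB in endothelial and epithelial cells, hepatocytes included. FTO, the target of the siRNA, is an enzyme that erases N6-methyladenosine (m6A), a methyl mark on RNA.

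FTO itself had 11.2, 14.5 and 5.21 CPM (read counts scaled to a common library size, with TMM factors for library composition) in the FTO siRNA libraries 1, 2 and 3, against 40.8, 38.0 and 38.8 CPM in the control siRNA libraries. Its log2 fold change was -1.93 ± 0.32 (SE; edgeR adjusted p = 0.00932), and it was called lower under each of the 18 alternative settings run. Total counts lay between 15713279 and 18390953 per library, so that 3 counts, taken as the floor of detection, were 0.163 to 0.191 CPM. FTO siRNA 3 stood apart from the other 2 FTO siRNA libraries: on the second principal component, which held 25.7% of the variance, it lay at 52.7, against -40.1 for FTO siRNA 1 and -22.7 for FTO siRNA 2. Hepatocyte markers were abundant in both groups, with summed levels of 20679, 16923 and 29600.0 CPM in FTO siRNA cells, against 34747, 34195 and 24341 CPM in control siRNA cells. By edgeR 0 of the 12 passed the adjusted threshold, beside 3.83% of all tested genes called lower. At an unadjusted p under 0.05 in edgeR 2 were lower, with no share of all tested genes counted at that threshold. DESeq2 and limma-voom each called 1 lower, where they called 924 and 564 of all genes lower in turn. Without FTO siRNA 3 edgeR called 7 lower, in a fit where 2152 of all 15290 tested genes were lower.

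Transcripts that leukocytes, and not liver cells, are known for were also present, more so after FTO siRNA. Of 24 leukocyte markers 16 had enough counts to be tested and 6 were listed at 0 in all 3 controls. By edgeR 11 of the 16 were higher in FTO siRNA cells, beside 7.53% of all tested genes. Of these 11, 10 were below the filter's cutoff of 0.602 CPM in at least 1 control library, 9 of them in all 3, and so were tested only because of their FTO siRNA libraries; their direction was fixed by the filter. Of the 5 markers that reached the cutoff in all 3 controls 1 was called higher. PTPRC, the common leukocyte phosphatase CD45, had 20, 20 and 20 counts in FTO siRNA cells and 0, 1 and 1 in control siRNA cells. The 20 immunoglobulin and T cell receptor constant genes together had 299, 346 and 336 counts in FTO siRNA cells, against 0, 0 and 2 in control siRNA cells. The summed level of all 24 markers was 219, 223 and 191 CPM in FTO siRNA cells and 167, 191 and 129.6 CPM in control siRNA cells. LYZ and LCP1 held most of it; without that pair, left out after their values were seen, the other 22 summed to 42.9, 31.2 and 31.1 CPM in FTO siRNA cells and 7.35, 5.91 and 7.12 CPM in control siRNA cells. Several genes described here, TNF, LTB, TNFSF9, TNFRSF1B, CD40, TNFRSF9 and ICAM1 among them, are also made by leukocytes, and the part of such transcripts in their values was not tested. Of 9 fibroblast markers 6 were tested and edgeR called 2 higher, or 33.3% beside 7.53% of all tested genes. The 9 summed to 149, 142 and 187 CPM in FTO siRNA cells and 82.4, 79.7 and 112 CPM in control siRNA cells. Of 8 endothelial markers 1 was tested, and it was not called. In bulk RNA, fewer cells of a type and less RNA per cell cannot be told apart.

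**Figure D1:**
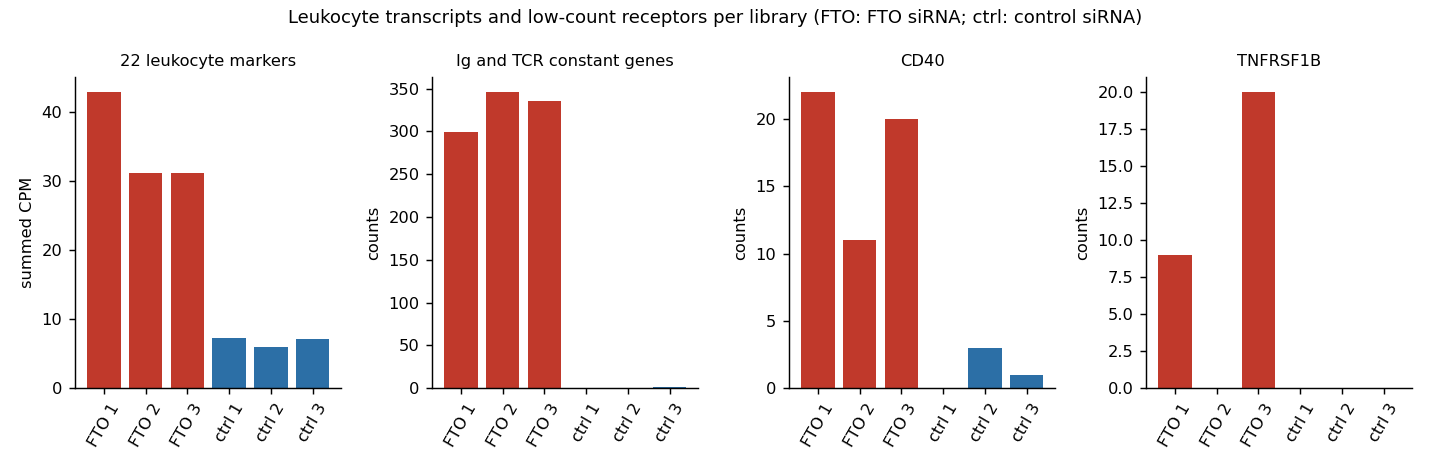
Leukocyte transcripts and the 2 receptors with the lowest counts, per library; bars are single libraries, FTO siRNA in red and control siRNA in blue. The panels give the summed CPM of 22 leukocyte markers, the counts of 20 immunoglobulin and T cell receptor constant genes, and the counts of CD40 and TNFRSF1B; the first 3 panels are higher in each FTO siRNA library than in any control, and TNFRSF1B is at 0 in FTO siRNA 2 and in all 3 controls.

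Of the 9 genes tested, 6 were higher after FTO siRNA: the ligands TNF and TNFSF9, the receptors CD40, TNFRSF9 and TNFRSF12A, and ICAM1. By edgeR, DESeq2 and limma-voom 0 were lower, also at an unadjusted p under 0.05 in edgeR. LTB, LTBR and TNFRSF21 did not pass the adjusted threshold, although at an unadjusted p under 0.05 all 9 were higher. The share of all tested genes at that unadjusted threshold was not counted, here or for any list. Such counts thus have no background to be set against. Over all tested genes 7.53% were called higher and 3.83% lower by the adjusted rule (edgeR's quasi-likelihood test, adjusted p under 0.05). In 8 of the 9 tested genes every FTO siRNA library lay above every control siRNA library, which held for 19.2% of all tested genes. The median log2 fold change of the 9 was 1.48, beside 0.04 over all tested genes. The set and the gene lists were chosen with earlier results of these data known, so their differences from all tested genes are not independent support. CD40 passed the filter on low counts only through its FTO siRNA libraries, so its presence among the 9 is not independent of its direction; TNFRSF1B did not pass the filter. The count of 6 fell to 1 without control siRNA 1 (TNF), to 3 without control siRNA 2 (TNF, CD40 and TNFRSF9) and to 4 without control siRNA 3, and it was 8 without FTO siRNA 3; the share of all tested genes called higher was then 1.51%, 1.84%, 3.23% and 15.9% in turn.

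**Figure D2:**
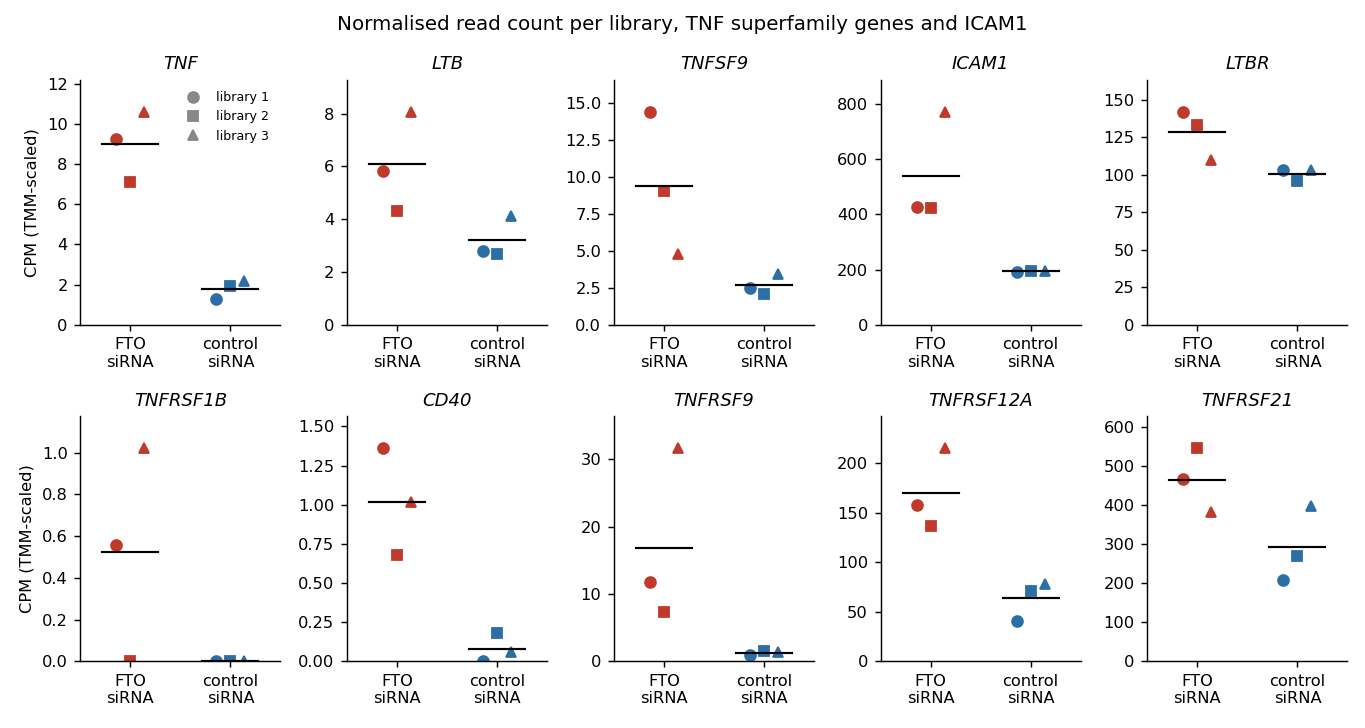
TMM-scaled CPM of the 10 genes in each library, FTO siRNA in red on the left and control siRNA in blue on the right of each panel; the symbol gives the library number and the line the mean of 3. The groups overlap in TNFRSF1B and TNFRSF21 only, and FTO siRNA 3 is the highest library for TNFRSF9 at 31.6 CPM and for ICAM1 at 772 CPM but the lowest FTO siRNA library for TNFSF9, LTBR and TNFRSF21.

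The sequence before the annotated start of 4 of these genes is given because it differs in the motifs for NF-kB and for the basal machinery that it holds. The windows are the 250 bases before the RefSeq start on GRCh38.p14, read 5′ to 3′ on the gene's strand: TNF at chr6:31575315-31575564 (plus strand), LTB at chr6:31582426-31582675 (minus strand, the first of its 2 windows in the table), TNFRSF9 at chr1:7940840-7941089 (minus strand) and ICAM1 at chr19:10270870-10271119 (plus strand). Capitals mark TATAAA in TNF, a kappa B site on the opposite strand in LTB, a pair of overlapping kappa B matches, one on each strand, and then TGANTCA in TNFRSF9, and GGAANTTCC and then TATAAA in ICAM1.
TNF: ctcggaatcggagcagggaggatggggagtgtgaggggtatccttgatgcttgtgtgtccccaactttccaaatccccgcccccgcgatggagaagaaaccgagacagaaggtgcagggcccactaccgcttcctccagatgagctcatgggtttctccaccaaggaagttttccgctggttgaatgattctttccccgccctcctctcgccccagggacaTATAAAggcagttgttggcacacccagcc
LTB: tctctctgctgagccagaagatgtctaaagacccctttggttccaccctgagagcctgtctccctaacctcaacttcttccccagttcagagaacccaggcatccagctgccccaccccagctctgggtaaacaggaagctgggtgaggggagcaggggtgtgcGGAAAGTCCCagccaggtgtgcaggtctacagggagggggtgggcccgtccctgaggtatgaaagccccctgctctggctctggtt
TNFRSF9: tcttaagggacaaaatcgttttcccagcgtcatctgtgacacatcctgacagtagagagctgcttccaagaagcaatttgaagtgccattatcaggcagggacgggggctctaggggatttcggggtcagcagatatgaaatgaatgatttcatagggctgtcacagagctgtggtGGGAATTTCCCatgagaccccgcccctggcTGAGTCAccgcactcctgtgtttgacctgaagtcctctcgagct
ICAM1: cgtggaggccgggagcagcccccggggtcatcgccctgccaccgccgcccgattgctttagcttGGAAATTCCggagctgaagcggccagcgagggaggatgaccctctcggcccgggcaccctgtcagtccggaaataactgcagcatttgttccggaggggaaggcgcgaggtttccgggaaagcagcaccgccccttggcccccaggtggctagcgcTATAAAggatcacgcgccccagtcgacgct

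Of the 10 genes 8 had a window in the table; CD40 and TNFRSF12A had no entry. Both strands were searched for the kappa B consensus, the site that NF-kB dimers are known to bind, taken as a strict pattern in which GGG is followed by a purine. Also searched were GGAANTTCC, a shorter form of it that overlaps the consensus where both occur, TGANTCA, the site of AP-1, and TATAAA, the TATA box. Looser forms were not searched for, so a window without a match, that of TNF included, may still hold a kappa B site. The kappa B consensus occurred in LTB, as GGGACTTTCC on the minus strand of the window at bases 86 to 77 before the start, and in TNFRSF9, as GGGAATTTCC on the plus strand of the window at bases 74 to 65 and as GGGAAATTCC on its minus strand at bases 73 to 64. GGAANTTCC occurred in TNFRSF9 at bases 73 to 65, inside both of these matches, and in ICAM1 at bases 186 to 178. TGANTCA occurred in TNFRSF9 at bases 44 to 38. TATAAA occurred in TNF at bases 29 to 24, and in TNFSF9 and ICAM1 at bases 30 to 25. Among 35116 windows of this length the consensus was found in 9.96%, GGAANTTCC in 0.826%, TGANTCA in 6.57% and TATAAA in 10.7%. The windows of LTBR, TNFRSF1B and TNFRSF21 held none of these letters.

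The ligands were low in abundance, and TNF, the founding cytokine of the family, had the largest log2 fold change of the 3. TNF (ENSG00000232810.3, chromosome 6), which signals through TNFRSF1A and TNFRSF1B, had 149, 115 and 207 counts in FTO siRNA cells, against 20, 32 and 36 counts in control siRNA cells. These were 9.23, 7.1 and 10.6 CPM in FTO siRNA cells and 1.27, 1.95 and 2.17 CPM in control siRNA cells. The lowest FTO siRNA library was above the highest control for TNF, and the libraries of each group lay close together. The mean was 8.97 ± 1.75 CPM in FTO siRNA cells and 1.8 ± 0.472 CPM in control siRNA cells (SD, n = 3 each), a log2 fold change of 2.31 ± 0.28 (SE; edgeR adjusted p = 0.00337). TNF was the one gene of the set called under all 18 alternatives, where its log2 fold change ran over 2.09 to 2.45 and its highest adjusted p was 0.0278. The TATA box marked above lies 29 bases before its start.

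TNF mRNA is known to be held short-lived by AU-rich elements in its 3′ untranslated region (3′ UTR), which the zinc finger protein ZFP36 binds. The nonamer TTATTTATT occurred 5 times in the 799 bases of the TNF 3′ UTR of GENCODE 29, and 4 of these matches overlap in a run of 27 bases.
TNF 3′ UTR: TTATTTATTATTTATTTATTATTTATT
All letters of this run belong to a match and are in capitals. The nonamer did not occur in the 3′ UTR of the other 9 genes, and 9.14% of 12576 tested genes with a 3′ UTR held at least one. GGACT, a common form of the sequence in which m6A is placed, had a median density of 0.928 per kilobase of the longest coding transcript over the same genes. Its density in that transcript was 0.597 per kilobase in TNF, 3.34 in LTB, 2.4 in TNFSF9, 1.77 in TNFRSF12A, 1.36 in TNFRSF1B, 1.23 in ICAM1, 0.885 in LTBR, 0.834 in TNFRSF21 and 0.503 in TNFRSF9, and CD40 had no match. The called genes thus stood on both sides of the median.

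LTB (ENSG00000227507.2, chromosome 6), lymphotoxin beta, anchors the lymphotoxin heterotrimer in the membrane and is the ligand of LTBR. It had 94, 70 and 158 counts in FTO siRNA cells and 44, 44 and 68 in control siRNA cells, or 5.83, 4.32 and 8.07 CPM in FTO siRNA cells against 2.79, 2.68 and 4.11 CPM in control siRNA cells. The groups did not overlap, but the lowest FTO siRNA library was only 1.05 times the highest control. The log2 fold change of LTB was 0.93 ± 0.30 (SE; edgeR adjusted p = 0.0825), and it passed the threshold under none of 18 alternatives, with adjusted p between 0.0678 and 0.283. Its window holds the kappa B site marked above.

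TNFSF9 (ENSG00000125657.4, chromosome 19), the ligand 4-1BBL that co-stimulates T cells, had 14.4, 9.02 and 4.75 CPM in FTO siRNA cells, against 2.47, 2.07 and 3.44 CPM in control siRNA cells. The FTO siRNA libraries differed about as widely among themselves as the groups did, with FTO siRNA 3 close above the controls. The mean was 9.4 ± 4.86 CPM in FTO siRNA cells and 2.66 ± 0.704 CPM in control siRNA cells (SD, n = 3 each), a log2 fold change of 1.81 ± 0.41 (SE; edgeR adjusted p = 0.0281). The call was lost under 8 of 18 alternatives, among them 5 of the 6 that leave out a library, with adjusted p up to 0.121. Without FTO siRNA 3 the log2 fold change was 2.11.

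The log2 fold changes of the tested receptors ran from 0.36 to 3.71. TNFRSF9 (ENSG00000049249.7, chromosome 1), the receptor 4-1BB that binds TNFSF9 and is known from activated T cells, had 191, 118 and 619 counts in FTO siRNA cells and 14, 26 and 23 in control siRNA cells. These were 11.8, 7.29 and 31.6 CPM in FTO siRNA cells and 0.887, 1.58 and 1.39 CPM in control siRNA cells, so that FTO siRNA 3 was 4.34 times FTO siRNA 2, and all 3 were above the controls. The log2 fold change was 3.71 ± 0.59 (SE; edgeR adjusted p = 0.00807), a 13.1-fold difference. Without FTO siRNA 3 the log2 fold change was 2.85, and without control siRNA 1 the adjusted p was 0.0507, the one alternative of 18 that lost the call. TNFRSF9 is also the gene whose window holds the kappa B and AP-1 letters together.

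CD40 (ENSG00000101017.12, chromosome 20), the receptor by which B cells and antigen-presenting cells take T cell help, was near the floor. It had 22, 11 and 20 counts in FTO siRNA cells and 0, 3 and 1 counts in control siRNA cells, with no overlap. Scaled for depth, the summed counts of 53 in FTO siRNA cells and 4 in control siRNA cells stood in a ratio of 12.5, with a 95% counting interval of 4.62 to 47.7 that covers counting error only. The fitted log2 fold change of CD40 was 3.52 ± 0.69 (SE; edgeR adjusted p = 0.0121). It was lost without control siRNA 1, without control siRNA 3 and with a replicate block plus trend removal, with adjusted p up to 0.0701, and without control siRNA 2 the log2 value was 4.74.

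TNFRSF1B (ENSG00000028137.15, chromosome 1), the second TNF receptor, found mainly on leukocytes and endothelium, had 9, 0 and 20 counts in FTO siRNA cells and 0, 0 and 0 in control siRNA cells. FTO siRNA 2 was thus as empty as the controls, and the gene was too low to be tested. With no filter on low counts edgeR gave it an adjusted p of 0.0776, and DESeq2 gave 0.406.

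TNFRSF12A (ENSG00000006327.12, chromosome 16), the TWEAK receptor Fn14, which is known to be induced in injured liver and other tissues, was abundant. It had 158, 137 and 215 CPM in FTO siRNA cells, against 41.1, 71.3 and 78.4 CPM in control siRNA cells. All FTO siRNA libraries lay well above the controls, and control siRNA 1 was the lowest. The mean was 170.1 ± 40.4 CPM in FTO siRNA cells and 63.6 ± 19.8 CPM in control siRNA cells (SD, n = 3 each), a log2 fold change of 1.42 ± 0.27 (SE; edgeR adjusted p = 0.0139). The call was lost without control siRNA 1 (adjusted p = 0.0552), without control siRNA 2 (0.0593) and with length and GC trends removed (0.0521). Its exons share 40 bases with CLDN6 on the other strand, which did not pass the test at a log2 fold change of 0.63.

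The remaining receptors were already abundant in control siRNA cells and had smaller log2 fold changes that did not pass the test. LTBR (ENSG00000111321.9, chromosome 12), the lymphotoxin beta receptor, had 142, 133 and 110.1 CPM in FTO siRNA cells and 103, 95.5 and 103 CPM in control siRNA cells, without overlap. Its log2 fold change was 0.36 ± 0.15 (SE; edgeR adjusted p = 0.153). TNFRSF21 (ENSG00000146072.6, chromosome 6), the death receptor DR6, had 468, 546 and 384 CPM in FTO siRNA cells and 208, 271 and 399 CPM in control siRNA cells. Control siRNA 3 was above FTO siRNA 3, so the groups overlapped, and the log2 fold change of 0.67 ± 0.25 (SE) had an edgeR adjusted p of 0.124. Without FTO siRNA 3 both passed, LTBR with an edgeR adjusted p of 0.0138 and TNFRSF21 with 0.0296. LTBR shares 422 exon bases with SCNN1A on the other strand. The use of strand in counting is not given in the sources used here, so it is not known whether reads of such pairs were kept apart.

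ICAM1 (ENSG00000090339.7, chromosome 19) had the highest mean level per length of the 10 genes in FTO siRNA cells. It had 6892, 6832 and 15109 counts in FTO siRNA cells and 3016, 3215 and 3245 in control siRNA cells, or 427, 422 and 772 CPM in FTO siRNA cells against 191, 196 and 196 CPM in control siRNA cells. The controls lay close together, far below the lowest FTO siRNA library, while FTO siRNA 3 stood well above the other 2. The mean was 540.4 ± 201 CPM in FTO siRNA cells and 194 ± 2.78 CPM in control siRNA cells (SD, n = 3 each), a log2 fold change of 1.48 ± 0.25 (SE; edgeR adjusted p = 0.00982). Without FTO siRNA 3 the log2 fold change was 1.10; the call was lost without control siRNA 1 (adjusted p = 0.0645) and without control siRNA 2 (0.0579). Antisense genes on the other strand, AC011511.2 and AC011511.5, share 876 exon bases with ICAM1. As for LTBR, it is not known how reads from these bases were counted.

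**Figure D3:**
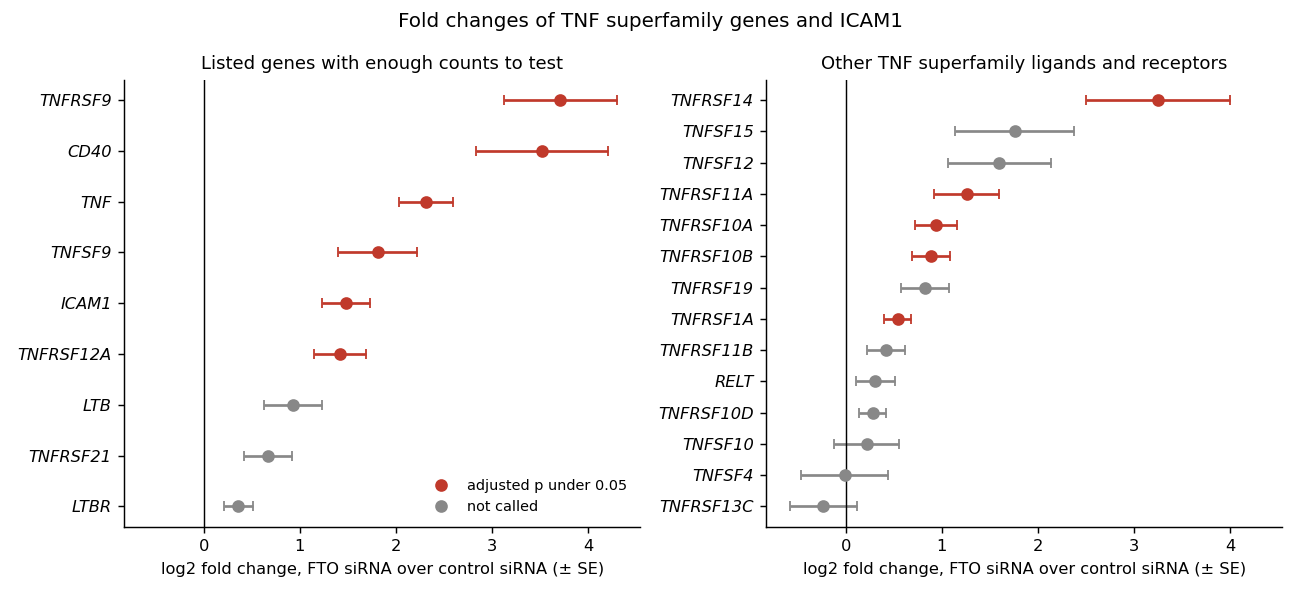
Log2 fold change of FTO siRNA over control siRNA (edgeR) with bars of 1 SE, on the left for the 9 tested genes of the set and on the right for the other tested ligands and receptors of the superfamily; red points passed the adjusted p threshold of 0.05 and grey points did not. On the left the values run from 0.36 for LTBR to 3.71 for TNFRSF9, with LTB, LTBR and TNFRSF21 in grey, and on the right TNFRSF14 has the largest value at 3.25.

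**Figure D4:**
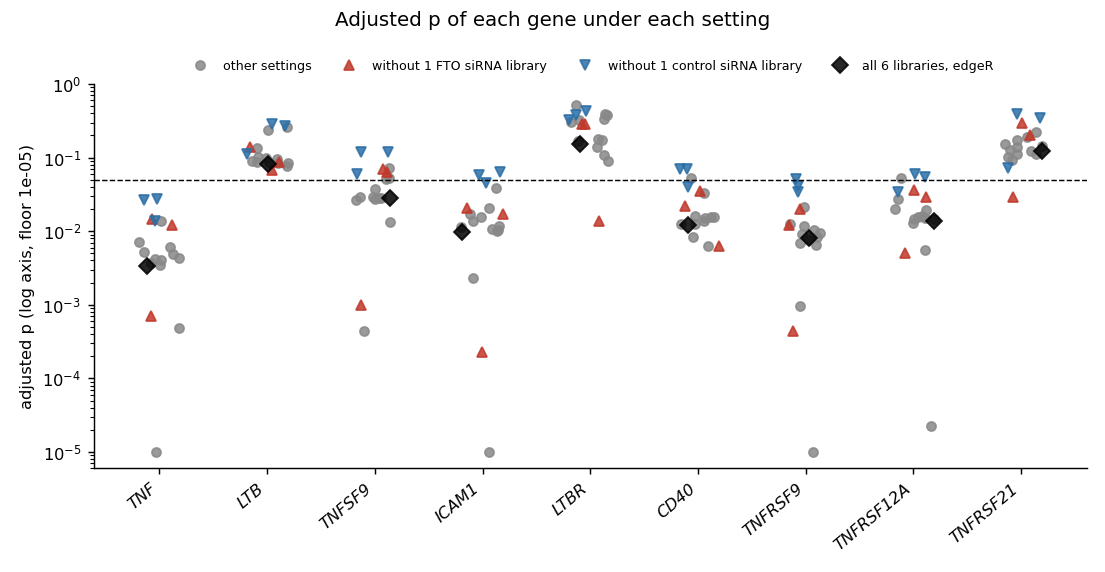
Adjusted p of each tested gene (log axis, values under 1e-05 drawn at that line) with all 6 libraries and edgeR, under other settings, and with 1 library left out; the dashed line is the threshold of 0.05. TNF is below the line at every setting, LTB above it at every setting, and most losses among the other called genes come from fits without 1 control siRNA library.

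Levels of different genes can be compared only per length, and are given here as CPM per kilobase of the longest annotated transcript. In FTO siRNA cells the order was ICAM1 at 166 ± 61.7, TNFRSF21 at 129.6 ± 22.5, TNFRSF12A at 101 ± 24.1 and LTBR at 55.3 ± 7.14 CPM per kilobase (SD, n = 3). Far below came TNFSF9 at 5.65 ± 2.92, TNF at 5.35 ± 1.05, LTB at 4.38 ± 1.36 and TNFRSF9 at 2.83 ± 2.17, and then CD40 at 0.589 ± 0.197 and TNFRSF1B at 0.143 ± 0.139 CPM per kilobase in FTO siRNA cells. The ranges of ICAM1 and TNFRSF21, of TNFRSF21 and TNFRSF12A, and of each neighbour in the run TNFSF9, TNF, LTB and TNFRSF9 overlapped, and the other neighbours did not. In control siRNA cells TNFRSF21 came first at 81.4 ± 27.0, before ICAM1 at 59.7 ± 0.853, LTBR at 43.2 ± 1.86 and TNFRSF12A at 37.9 ± 11.8 CPM per kilobase. LTB at 2.3 ± 0.572 led the low genes in control siRNA cells, before TNFSF9 at 1.6 ± 0.423, TNF at 1.07 ± 0.282 and TNFRSF9 at 0.216 ± 0.0602 CPM per kilobase; CD40 was at 0.0468 and TNFRSF1B was listed at 0. There the ranges of TNFRSF21 and ICAM1, of LTBR and TNFRSF12A, of LTB and TNFSF9, of TNFSF9 and TNF, and of CD40 and TNFRSF1B overlapped. With the length of all exons together in place of the longest transcript, LTBR had 20.5 CPM per kilobase in FTO siRNA cells and 16.0 in control siRNA cells, and TNFRSF12A had 92.0 in FTO siRNA cells and 34.4 in control siRNA cells. The order of LTBR and TNFRSF12A in control siRNA cells was then reversed, without overlap of their ranges.

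**Figure D5:**
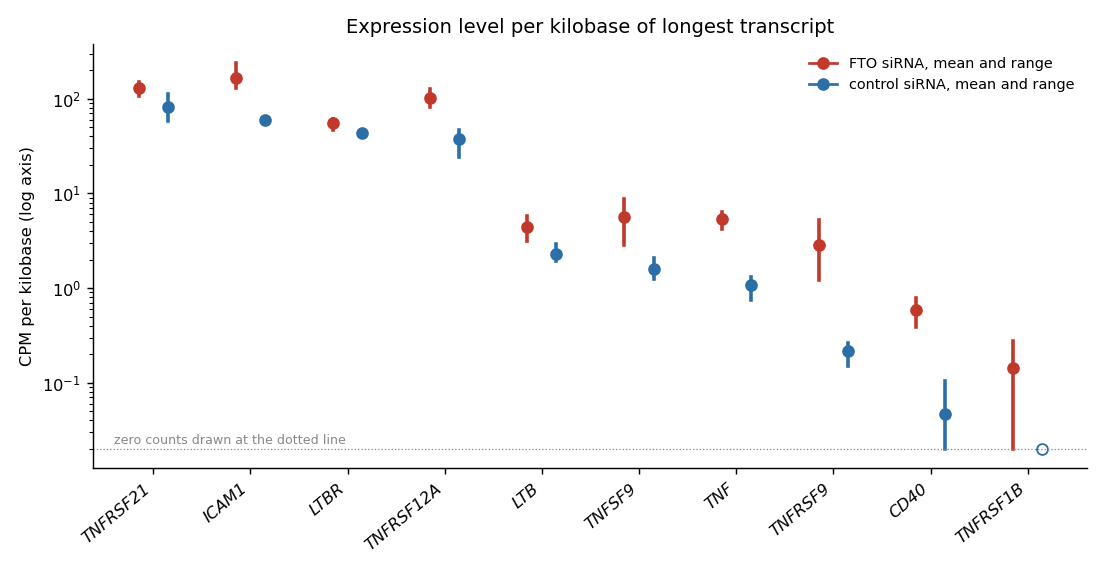
Level of each gene per kilobase of its longest transcript, in CPM per kilobase on a log axis, mean and range over 3 libraries, FTO siRNA left of control siRNA. The genes ICAM1, TNFRSF21, TNFRSF12A and LTBR, lie above 24 CPM per kilobase in every library, and the other 6 lie below 9; values of 0 are drawn at the dotted line.

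Known ligands and receptors were set side by side. TNFRSF1A, the TNF receptor of most tissues, was higher at 127 ± 10.4 CPM in FTO siRNA cells and 87.4 ± 5.81 CPM in control siRNA cells (SD, n = 3 each; log2 fold change 0.54 ± 0.14 (SE), edgeR adjusted p = 0.0374), while TNFRSF1B stayed at 20 counts or fewer. LTA, which joins LTB in the ligand of LTBR, had 7, 4 and 11 counts in FTO siRNA cells and 4, 1 and 9 in control siRNA cells and was not tested. TNFSF9 was highest in FTO siRNA 1 and its receptor TNFRSF9 in FTO siRNA 3, so the pair did not share its order of libraries. CD40LG, the ligand of CD40, had 0, 0 and 2 counts in FTO siRNA cells and none in control siRNA cells. TNFSF12, the TWEAK ligand of TNFRSF12A, had a log2 fold change of 1.60 ± 0.54 (SE), with an edgeR adjusted p of 0.0926. It was at 1.32 ± 0.288 CPM in FTO siRNA cells and 0.434 ± 0.327 CPM in control siRNA cells. Its counts were 23, 16 and 30 in FTO siRNA cells and 9, 11 and 1 in control siRNA cells. TNFSF12 reached the filter's cutoff in 3 libraries only with its FTO siRNA libraries. APP, whose amino-terminal part has been described as a ligand of TNFRSF21, was abundant at 911 ± 241 CPM in FTO siRNA cells and 753 ± 60.2 CPM in control siRNA cells and was not called (log2 fold change 0.27, edgeR adjusted p = 0.451). Of the integrin LFA-1 that binds ICAM1, the alpha chain ITGAL was lower, at 4.24 ± 0.665 CPM in FTO siRNA cells and 9.91 ± 3.15 CPM in control siRNA cells (log2 fold change -1.22 ± 0.29 (SE), edgeR adjusted p = 0.0306), and the beta chain ITGB2 had 6, 1 and 9 counts in FTO siRNA cells and 1, 0 and 0 in control siRNA cells. ITGAM, the alpha chain of the integrin Mac-1, reached the filter's cutoff in 3 libraries only with its FTO siRNA libraries, and was higher at 1.93 ± 1.0 CPM in FTO siRNA cells and 0.45 ± 0.244 CPM in control siRNA cells (log2 fold change 2.10 ± 0.52 (SE), edgeR adjusted p = 0.0372). The calls of ITGAL, ITGAM and TNFRSF1A were each lost in at least 4 of the 6 fits that leave out a library, and with the replicate block (edgeR adjusted p = 0.0708, 0.0678 and 0.105 in turn). ITGAM was also lost with a fold minimum of 1.2 (0.0506), and TNFRSF1A with that minimum (0.104), with no filter (0.113) and with length and GC trends removed (0.103).

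Among the other receptors of the superfamily 10 were tested and edgeR called 5 higher, beside 7.53% of all tested genes, and 0 lower (0 lower also at an unadjusted p under 0.05, with DESeq2 and with limma-voom). TNFRSF14 was below the filter's cutoff of 0.602 CPM in all 3 controls and so was tested only because of its FTO siRNA libraries. Of the 9 that reached the cutoff in all controls 4 were higher, with a median log2 fold change of 0.54 beside 0.04 over all genes. TNFRSF14, the receptor HVEM, had 16, 20 and 83 counts in FTO siRNA cells and 5, 3 and 3 in control siRNA cells (log2 fold change 3.25 ± 0.75 (SE), edgeR adjusted p = 0.0284), so that FTO siRNA 3 held most of its counts. TNFRSF10B and TNFRSF10A, the death receptors of TRAIL, were higher with log2 fold changes of 0.89 and 0.94 (edgeR adjusted p = 0.025 and 0.0317). TNFRSF11A, the receptor RANK, was outside the 4 smallest p-values that the naming rule allows and is added here to complete the count, at a log2 fold change of 1.26 (edgeR adjusted p = 0.0454). The count of 5 was 0 without control siRNA 1 and without control siRNA 2, where 1.51% and 1.84% of all tested genes were higher. It was 1 without control siRNA 3 and without FTO siRNA 2 (3.23% and 5.69% of all tested genes), and 4 without FTO siRNA 1 (4.86%). It was 2 with a fold minimum of 1.2 (5.38%) and 3 with length and GC trends removed (6.58%). Of the other ligands 4 of 15 had enough counts, and 0 were called in either direction by edgeR. Their median log2 fold change was 0.91, or 0.1 over the 2 that reached the cutoff in all controls. At an unadjusted p under 0.05 in edgeR 2 of the 4 were higher, with no share of all tested genes counted at that threshold. DESeq2 called 1 higher and limma-voom 0, beside 7.3% and 6.72% of all genes called higher in turn.

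Of the signalling proteins that sit next to the receptors, 26 of 27 were tested, with a median log2 fold change of 0.21. By edgeR 4 were higher, or 15.4% beside 7.53% of all tested genes, and 1 was lower, beside 3.83% of all tested genes. BIRC3, the ubiquitin ligase cIAP2, had 128, 91.0 and 101 CPM in FTO siRNA cells, against 23.3, 43.4 and 37.1 CPM in control siRNA cells (log2 fold change 1.62 ± 0.24 (SE), edgeR adjusted p = 0.00663). TNFAIP3, the A20 enzyme that restrains NF-kB signalling, was at 106 ± 17.5 CPM in FTO siRNA cells and 53.3 ± 4.84 CPM in control siRNA cells (edgeR adjusted p = 0.00932). RBCK1, a subunit of the linear ubiquitin chain complex, and MAP3K8, a kinase that feeds the MAP kinase cascade, were higher with log2 fold changes of 0.82 and 0.87 (edgeR adjusted p = 0.0138 and 0.0179). TAB3, an adaptor of the kinase TAK1, was lower, at 97.2 ± 20.03 CPM in FTO siRNA cells and 198 ± 23.4 CPM in control siRNA cells (log2 fold change -1.03 ± 0.18 (SE), edgeR adjusted p = 0.0121). BIRC3 was called in all 6 fits that leave out a library. RBCK1 was lost with length and GC trends removed (edgeR adjusted p = 0.0746) and MAP3K8 with the replicate block (0.0533). TAB3 was lost without control siRNA 1 and without control siRNA 2 (edgeR adjusted p up to 0.0677). The count of 4 was 1 without control siRNA 1, 2 or 3, where 1.51%, 1.84% and 3.23% of all tested genes were higher in turn. It was 10 without FTO siRNA 3, where 15.9% of all tested genes were higher.

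All 9 NF-kB subunits and inhibitors reached the filter's cutoff in every control, and their median log2 fold change was 0.84. Over all tested genes edgeR called 7.53% higher and 3.83% lower. Of these 9, 6 were higher and 0 lower by edgeR, DESeq2 and limma-voom alike (0 lower at an unadjusted p under 0.05 in edgeR). The subunits of the non-canonical route were both among them: RELB had 65.5, 47.5 and 67.6 CPM in FTO siRNA cells and 19.8, 24.5 and 25.8 CPM in control siRNA cells (log2 fold change 1.37 ± 0.19 (SE), edgeR adjusted p = 0.00488), and NFKB2 averaged 117 ± 20.4 CPM in FTO siRNA cells and 52.7 ± 8.21 CPM in control siRNA cells (edgeR adjusted p = 0.00873). The inhibitor NFKBIA and the nuclear cofactor BCL3 were higher with log2 fold changes of 0.93 and 1.00 (edgeR adjusted p = 0.00919 and 0.0276). RELA, NFKB1 and REL, chosen after their values were seen to complete the subunits, were not called at log2 fold changes of 0.26, 0.12 and -0.58. The count of 6 was 1 without control siRNA 1, 2 without control siRNA 2 and 3 without control siRNA 3 or FTO siRNA 1. Of all tested genes 1.51%, 1.84%, 3.23% and 4.86% were then higher in turn. Without FTO siRNA 3 the count was 6 and 1 gene of the list was lower, where 15.9% of all tested genes were higher and 2152 genes lower. RELB was called in all 6 fits that leave out a library. The count was 4 with a fold minimum of 1.2, with the replicate block and with length and GC trends removed. Of all tested genes 5.38%, 4.9% and 6.58% were then higher in turn. With the block and trend removal together, NFKBIB, NFKBIE and BCL3 lost their calls (edgeR adjusted p = 0.116, 0.133 and 0.17). There 3.88% of all tested genes were higher. The inhibitors NFKBIB and NFKBIE are added here to complete the 6.

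Genes that act on TNF itself gave a mixed picture. ADAM17, the protease that sheds TNF, had a log2 fold change of 0.33 (edgeR adjusted p = 0.398), whereas RHBDF2 and FRMD8, which serve the maturation and surface stability of ADAM17, were higher with log2 fold changes of 0.81 and 0.51 (edgeR adjusted p = 0.0345 and 0.0425), 2 of the 5 shedding genes tested. The AU-rich element binder ZFP36 was higher, at 55.8 ± 9.52 CPM in FTO siRNA cells and 30.4 ± 4.35 CPM in control siRNA cells (log2 fold change 0.87, edgeR adjusted p = 0.0193). Its relative ZFP36L2 was lower, at 67.1 ± 9.17 CPM in FTO siRNA cells and 129 ± 15.0 CPM in control siRNA cells (log2 fold change -0.95, edgeR adjusted p = 0.0102). The list of 6 turnover genes had 1 higher, 1 lower and a median of -0.29. Beside this list and the shedding genes, 7.53% of all tested genes were called higher and 3.83% lower. The calls of RHBDF2, FRMD8, ZFP36 and ZFP36L2 were all lost without control siRNA 1 and without control siRNA 2, and those of RHBDF2 and FRMD8 also without control siRNA 3 and without FTO siRNA 2. With length and GC trends removed the edgeR adjusted p was 0.113 for RHBDF2, 0.152 for FRMD8 and 0.07 for ZFP36. RHBDF2 and FRMD8 were also lost with a fold minimum of 1.2 (edgeR adjusted p = 0.0696 and 0.124) and with the replicate block (0.0503 and 0.131), RHBDF2 with no composition factors (0.0509), and FRMD8 with RLE factors (0.0519), with no filter (0.155) and with DESeq2 (0.0721). ZFP36L2 kept its call under all of these settings. Of the ICAM family and other adhesion molecules 6 of 13 were tested and edgeR called 0, with a median log2 fold change of 0.48. At an unadjusted p under 0.05 in edgeR 2 were higher and 1 lower, with no share of all tested genes counted at that threshold. DESeq2 called 2 higher and limma-voom called 0, beside 7.3% and 6.72% of all genes called higher in turn.

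The order of the libraries differed between the genes. FTO siRNA 3 was the highest library for 6 of the 10 genes, FTO siRNA 1 for 3 and FTO siRNA 2 for 1. Within the FTO siRNA group, FTO siRNA 2 was the lowest library for 7 genes and FTO siRNA 3 for TNFSF9, LTBR and TNFRSF21. The gene whose centred log2 CPM profile over the 6 libraries lay nearest was FOS for TNF (root mean square difference 0.14), FOSL2 for TNFRSF12A (0.11) and KCTD11 for ICAM1 (0.11), among 12451 candidates each. It was FAAH for LTB (0.05), PLOD1 for LTBR (0.02) and TUFT1 for TNFRSF21 (0.09). CD40 was nearest to GBP1 (0.15), TNFSF9 to the pseudogene RPL7P23 (0.15) and TNFRSF9 to IL2RG (0.32).

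TNF and LTB are neighbours on chromosome 6 with LTA, and TNFSF9 on chromosome 19 lies in a run of ligand genes with CD70 and TNFSF14. Among the nearest 3 protein-coding genes on each side of the 10, counted once each and without the members, 29 of 53 were tested, and edgeR called 3 higher, or 10.3% beside 7.53% of all tested genes, and 0 lower. TNFRSF1A, near LTBR, was one. The others were the adhesion G protein-coupled receptors ADGRF4 and ADGRF1 beside TNFRSF21, named after their values were seen. Both were below the filter's cutoff of 0.602 CPM in at least 1 control library and so were tested only because of their FTO siRNA libraries. ADGRF4 had 70, 98 and 124 counts in FTO siRNA cells and 6, 7 and 16 in control siRNA cells (log2 fold change 3.22 ± 0.37 (SE), edgeR adjusted p = 0.00287), and ADGRF1 had 17, 26 and 32 counts in FTO siRNA cells and 6, 6 and 7 in control siRNA cells (log2 fold change 1.86 ± 0.37 (SE), edgeR adjusted p = 0.0173).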

How the data were processed

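RNA sequencing of HepG2 cells gave 6 libraries, 3 after FTO siRNA and 3 after control siRNA, grouped by the transfection label. The authors deposited a table of raw read counts for each library, by Ensembl identifier. Per the submitters' processing notes, which state no roles, the tools were TopHat2 2.0.11, TopHat and HTSeq and the builds hg19 and GRCh37. Strand use and the handling of reads matching several genes were not given in the sources used here. No 2 libraries of one group agreed within sampling noise (chi-square over its degrees of freedom at least 9.35).

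Counts were tested with edgeR 4.0.16 in R 4.3.3: filterByExpr by group, TMM, glmQLFit and glmQLFTest on the group, two-sided, Benjamini-Hochberg adjustment over all 15025 tested genes, threshold 0.05. SE is the log2 fold change over the square root of F. Of the identifiers, 56753 matched GENCODE 29, which gave symbols, lengths and 3′ UTRs; its build differs from the named one, so gene coordinates are not printed, and RefSeq windows carry their own build. Named genes were the members, the called genes of each list (at most 4 by p), the partners of known pairs, FTO and the nearest profile of each member (mean log2 CPM of at least 1); others are marked. Members and lists were chosen with earlier results of these data known.

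In data simulated for this comparison over the 15025 genes, 9.23% of genes changed 1.5-fold, 33.3% changed 2-fold and 100% changed 4-fold were called. The simulation gave every gene and library the same dispersion and changed 200 genes. The real libraries differed unevenly, with FTO siRNA 3 apart, so these shares do not measure the sensitivity in the real data. Alternatives were other scaling factors (RLE, upper quartile, none), no filter, at least 1 CPM in 3 libraries, DESeq2 1.42.0, limma-voom (limma 3.58.1), edgeR's older method, a fold minimum of 1.2, length and GC trends removed by lowess (span 0.3), a replicate block, and each library left out.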

Additional observations from a re-analysis of the deposited data

How the results depend on the processing

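All tested genes of the set kept their direction under every alternative run; TNFRSF1B could not be fitted after the filter, nor CD40 with at least 1 CPM in 3 libraries. With all libraries 6 members, 19 genes of the pathway lists and 1132 of all 15025 tested genes were higher, and 3 list genes and 575 of all genes lower. The list genes tested in that fit were 4 other ligands, 10 other receptors, 26 signalling genes and 9 NF-kB genes. To these came 5 shedding, 6 turnover, 6 adhesion and 2 integrin genes. With DESeq2 924 of all genes were lower. With a fold minimum of 1.2 the counts were 11 list genes higher and 315 of all genes lower, and with length and GC trends removed 11 list genes were higher. Replicate numbers did not pair the libraries (correlations of same-numbered deviations -0.138, -0.0643 and -0.248); with the replicate block 12 list genes and 736 of all genes were higher and 305 lower, and with the block and trend removal 8, 583 and 277. Leaving out 1 library gave 1 to 8 members higher, 2 to 28 list genes higher, 0 to 7 list genes lower, 236 to 2430 of all genes higher and 94 to 2152 lower; the lowest counts were without control siRNA 1 and the highest without FTO siRNA 3. The cause was not tested. Of all calls 66.3% were higher, against 53.0% without FTO siRNA 3. Depth limits CD40 and TNFRSF1B, whose control counts were at or near the floor. In simulated data 2-fold changes were often missed, but the simulated dispersion was the same for every gene, unlike that of the real libraries.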
